A study of Mus musculus with 124 samples.

Results

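The genes described here are 10 mouse genes of germline genome defence: Tex15, Tex19.1, Tex19.2, Mael, Asz1, Ddx4, Taf7l, Sycp3, Tdrd1 and Piwil2. They were chosen as a set because Tex15 and Tex19.2 were higher in oocytes from hCG-injected females in these same data, and the other members belong to the same silencing machinery or are, like it, germline genes silenced by promoter methylation in other cells. All 10 symbols were found among the 26992 gene symbols of the oocyte table, the 25239 of the blastocyst table and the 24384 of the offspring brain table. The differences of the members between hCG and Ctrl oocytes therefore describe how they were chosen and are given without a test. The blastocyst and brain comparisons were not used to choose them and are tested.

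In mouse germ cells, PIWI proteins carry small RNAs called piRNAs that match retrotransposons, and this machinery cuts transposon transcripts and guides DNA methylation to transposon promoters in the male germ line. Many of the genes that encode it have CpG-rich promoters that are methylated and silent in somatic cells and regain activity in germ cells. PIWIL2 (MILI) binds piRNAs, DDX4 (mouse Vasa), TDRD1, ASZ1 and MAEL act in the germ granules where piRNAs are made, TEX15 is needed for piRNA-directed methylation in fetal male germ cells, and the TEX19 proteins hold retrotransposons in check.

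The study compared RNA after ovulation was triggered by human chorionic gonadotropin (hCG) with RNA of a Ctrl group. This hormone is used as an ovulation trigger in assisted reproduction. Females of the hCG group, in natural estrus and with no PMSG priming, received 7.5 IU by intraperitoneal injection, and their denuded metaphase II oocytes were taken 14 h later. For the Ctrl oocytes, females also in estrus were caged alone with a vasectomised male, and oocytes were taken on the morning a plug was found. Mating and the time since ovulation were therefore not matched between the oocyte groups and cannot be told apart from hCG. How the females that gave the blastocysts and the offspring were mated is not described here. Oocytes had 6 libraries per group, blastocysts flushed from the uterus at embryonic day 3.5 had 28 per group, and the dorsal dentate gyrus (dDG, a part of the hippocampus) of 8-week-old offspring had 6 per group. The labels do not say whether libraries of a group came from separate females, embryos or litters, so p-values measure the spread between libraries. The bisulfite libraries of the series, labelled scBS-seq for oocytes and blastocysts and RRBS for the dDG, were not analysed here.

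Libraries held 4169163 to 5335876 reads in hCG oocytes and 2375645 to 6910882 in Ctrl oocytes. In blastocysts an estimated 4263368 to 9259354 reads were present in hCG and 3043230 to 10859383 in Ctrl, and 12711 to 14072 genes were detected in hCG against 10380 to 13836 in Ctrl. In the dDG the libraries held 15882790 to 17250116 reads in hCG and 14941552 to 17799935 in Ctrl. The labelled material was checked against marker genes, and every one of the 14 oocyte markers, the 13 blastocyst markers and the 14 dentate granule neuron markers averaged at least 1 CPM (counts per 1000000 reads of a library) in its own table. Of the blastocyst libraries, 5 of 28 in hCG and 0 of 28 in Ctrl held both Xist and Y-linked transcripts at 50 CPM or more, so results in blastocysts were also computed without those 5. In the dDG 1 hCG library, replicate 6, had the highest choroid plexus markers, and their summed level spanned 73.2 to 10331 CPM in hCG and 65.2 to 293 CPM in Ctrl.

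Tex15 and the Tex19 pair lie in different parts of the genome. In the mouse build GRCm38.p6, Tex15 spans chr8:33516689-33592503. Tex19.1 lies on the plus strand at chr11:121146143-121148314, and Tex19.2 lies on the minus strand at chr11:121116215-121118677, so the 2 paralogs point away from each other with starts 27.5 kb apart. Mael, Asz1, Ddx4, Sycp3, Tdrd1 and Piwil2 are on chromosomes 1, 6, 13, 10, 19 and 14, and Taf7l is X-linked. The 3′ part of Sycp3 overlaps the gene Chpt1, and whether counting used the strand is not given in the sources used here.

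Promoter windows of 250 bases before to 50 bases after the annotated start were read from the RefSeq table of build GRCm38.p6, which gave them for 8 of the 10 members, all but Tex15 and Piwil2. They were scanned on both strands for the letters CACGTG, an E-box of the kind bound by the MGA and MAX partners of the germline-gene repressor PRC1.6, and for GCGGGA, an E2F6-type motif that reads as TCCCGC on the opposite strand. These motifs do not overlap one another. The E-box was present in 5 of the 8 members, against 7.15% of all 32851 windows, and the E2F-type motif in 4, against 19.975% of all windows. Both were present in Mael, Sycp3 and Ddx4, that is in 3 of the 8 members, against 1.99% of all windows. The letters are a description and not shown sites. The Tex19 pair, whose oocyte values are set side by side below, and the 2 gene starts with both motifs that are described below, Sycp3 and Ddx4, are printed 5′ to 3′ along the gene, with any motif in capitals. The windows are Tex19.2, chr11:121118628-121118927, minus strand; Tex19.1, chr11:121145893-121146192, plus strand; Sycp3, chr10:88459337-88459636, plus strand; and Ddx4, chr13:112652261-112652560, minus strand.
Tex19.2: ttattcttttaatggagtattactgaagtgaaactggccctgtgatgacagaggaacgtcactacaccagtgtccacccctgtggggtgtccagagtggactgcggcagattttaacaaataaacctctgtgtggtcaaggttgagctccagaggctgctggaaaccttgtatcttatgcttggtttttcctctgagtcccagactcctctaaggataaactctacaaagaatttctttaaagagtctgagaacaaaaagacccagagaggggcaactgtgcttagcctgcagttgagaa
Tex19.1: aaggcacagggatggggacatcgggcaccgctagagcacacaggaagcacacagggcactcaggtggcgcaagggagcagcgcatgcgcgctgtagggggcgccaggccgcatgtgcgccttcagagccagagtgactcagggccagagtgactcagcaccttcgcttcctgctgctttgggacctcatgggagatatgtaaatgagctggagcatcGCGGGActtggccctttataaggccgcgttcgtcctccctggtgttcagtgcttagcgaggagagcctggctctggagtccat
Sycp3: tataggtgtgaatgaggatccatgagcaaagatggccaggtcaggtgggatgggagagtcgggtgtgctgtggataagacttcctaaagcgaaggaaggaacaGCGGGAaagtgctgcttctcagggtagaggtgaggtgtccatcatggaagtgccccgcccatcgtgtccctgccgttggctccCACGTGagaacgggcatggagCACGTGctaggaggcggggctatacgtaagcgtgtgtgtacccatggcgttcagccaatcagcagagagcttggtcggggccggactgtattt
Ddx4: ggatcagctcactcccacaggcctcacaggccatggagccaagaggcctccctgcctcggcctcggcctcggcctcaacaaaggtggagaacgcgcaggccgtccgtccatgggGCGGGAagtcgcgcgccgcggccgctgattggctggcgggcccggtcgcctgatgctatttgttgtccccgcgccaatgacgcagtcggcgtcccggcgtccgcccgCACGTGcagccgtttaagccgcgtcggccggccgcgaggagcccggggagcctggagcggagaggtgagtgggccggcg

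The window of Tex19.2 held 2 CpG dinucleotides and neither motif. That of Tex19.1 held 16 CpGs and 1 E2F-type motif, 33 bases before the start (position -33). Of all windows, whose median was 7 CpGs, 14.1% had fewer than Tex19.2 and 67.0% had fewer than Tex19.1. The paralogs thus differ in CpG content by these counts. Sycp3 had 15 CpGs, with E-boxes at -64 and -43 and the E2F-type motif at -147, and Ddx4 had 38 CpGs, more than 95.0% of windows, with an E-box at -29 and the E2F-type motif at -136. The windows of Mael, Asz1 and Taf7l held 24, 17 and 17 CpGs, and the 3 windows of Tdrd1 held 20, 25 and 3.

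In oocytes, Tex15 and Tex19.2 were the members with large differences, and the groups of the other members overlapped. Tex15 had 39.3 CPM in the lowest, 72.0 in the median and 156 in the highest hCG library, against 0.958, 7.82 and 19.9 CPM in Ctrl. Every one of the 6 hCG libraries was above all 6 Ctrl libraries, and in reads Tex15 totalled 2335 over hCG libraries and 209 over Ctrl libraries. The means were 80.7 ± 39.7 CPM in hCG and 8.56 ± 6.82 CPM in Ctrl (SD, n = 6 each), a log2 fold change of hCG over Ctrl of 3.28 ± 0.49 (SE), which ranked 13 among 9551 genes with enough reads to be tested. Between the alternative ways of processing, the log2 fold change of Tex15 stayed within 2.96 to 3.77.

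Tex19.2 had 23.8, 36.6 and 87.3 CPM as the lowest, median and highest values of the hCG oocytes, against 6.01, 12.2 and 22.1 CPM in Ctrl. The groups did not overlap, but the lowest hCG library was close to the highest Ctrl library. Its means were 49.1 ± 26.8 CPM in hCG and 11.9 ± 5.86 CPM in Ctrl (SD, n = 6 each), and its log2 fold change of 2.04 ± 0.35 ranked 20 and ranged from 1.81 to 2.34 over the alternatives. Its paralog Tex19.1 had 73.1, 100 and 286 CPM in hCG and 92.0, 127 and 186 CPM in Ctrl, with overlapping groups and a log2 fold change of 0.09 ± 0.28. Over the alternatives the Tex19.1 value ranged from -0.29 to 0.21 and so had no fixed sign.

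The germ-granule members were readily detected in MII oocytes of both groups. Ddx4 averaged 365 ± 52.1 CPM in hCG and 385 ± 34.5 CPM in Ctrl, with a log2 fold change of -0.09 ± 0.13. Tdrd1, the Tudor-domain partner of PIWI proteins, averaged 108 ± 32.1 CPM in hCG and 107 ± 25.7 CPM in Ctrl, with a log2 fold change of -0.01 ± 0.20. Asz1, which tethers germ granules to mitochondria, averaged 71.1 ± 10.9 CPM in hCG and 74.5 ± 18.1 CPM in Ctrl, with a log2 fold change of -0.08 ± 0.18. For all 3 the difference was smaller than the spread between libraries, and the groups overlapped.

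Mael, an HMG-box protein of piRNA biogenesis, was less well measured. It averaged 9.39 ± 4.47 CPM in hCG oocytes and 6.58 ± 3.15 CPM in Ctrl oocytes, with a log2 fold change of 0.51 ± 0.37 that lies within 2 SE of 0, and the hCG highest library reached 17.8 CPM. Sycp3, a component of the meiotic chromosome axis, averaged 117 ± 26.9 CPM in hCG and 137 ± 52.2 CPM in Ctrl, with a log2 fold change of -0.24 ± 0.22.

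The remaining pair was at the limit of detection and was not fitted. Taf7l, a germ-cell paralog of a general transcription factor subunit, had 1 read in 1 hCG library and 0 in Ctrl. Piwil2 had 21 reads in 3 hCG libraries and 12 reads in 5 Ctrl libraries. Thus 8 of the 10 members passed the low-count filter. Of all genes tested, 1.33% were called higher and 2.66% lower in hCG oocytes (edgeR quasi-likelihood test, Benjamini-Hochberg adjusted p under 0.05). No count of members is set against these shares, since the members were chosen from this contrast. Beside these values, the summed oocyte markers were 18274 to 23394 CPM in hCG and 21868 to 26478 CPM in Ctrl, with Mos and Zp3 called lower. The cumulus and granulosa markers summed to 17.7 to 24.4 CPM in hCG and 15.8 to 24.8 CPM in Ctrl. Cyp19a1 was the most abundant of them, at 19.6 CPM in hCG and 17.6 CPM in Ctrl with reads in every library. Foxl2, Inha, Fshr and Ptx3 were at 0. Sperm and seminal markers summed to 1.22 to 7.95 CPM in hCG and 3.38 to 5.72 CPM in Ctrl. Prm2 was the most abundant of these, at 2.74 CPM in hCG and 3.01 CPM in Ctrl with reads in every library, and Prm3 was at 0. The part of these markers in the members' values was not tested.

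**Figure D1:**
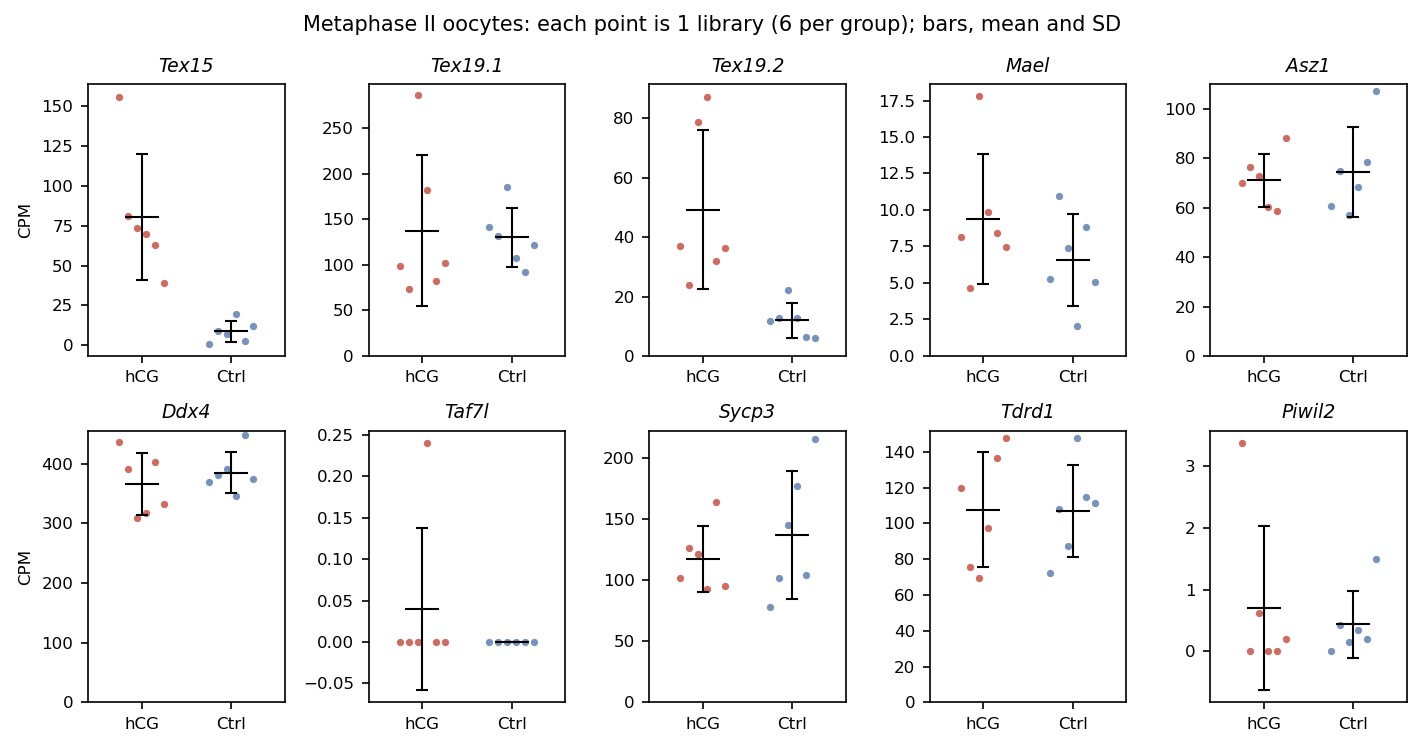
Level of each member in oocytes, in CPM on linear axes, with 1 point per library (6 hCG on the left, 6 Ctrl on the right) and bars for mean and SD. Tex15 and Tex19.2 are the panels in which every hCG point lies above every Ctrl point, and Taf7l and Piwil2 lie close to 0.

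The plot of oocyte levels shows the wide hCG spread of both Tex19 genes. In both, the highest pair of hCG libraries was replicates 3 and 4 and the highest Ctrl library was replicate 3. After subtracting each group's mean from log2(CPM + 1), the correlation of Tex19.1 and Tex19.2 over the 12 oocyte libraries was r = 0.845 (permutation p = 0.00038, Benjamini-Hochberg adjusted p over 28 pairs of 8 members 0.0106) and rho = 0.804 (adjusted p = 0.0720). Leaving out the 2 libraries farthest from the median gave r = 0.787, and within groups r was 0.941 in hCG and 0.703 in Ctrl. It was the 1 pair of 28 past the threshold by r, and 0 were by rho. Tex15 and Tex19.2 did not move together between libraries by this measure, with r = 0.03 and an adjusted p of 0.94 in the permutation test, which does not show that they are independent. This oocyte relation was examined after the data had been seen. Among 7805 tested genes with a mean of at least 5 CPM, those whose levels were most like Tex15 over the 12 libraries by the same group-centred measure were Dirc2 (r = 0.865, rho = 0.839), BC067074 (r = 0.864), Fam90a1b (r = 0.854), Foxp1 (r = 0.821) and Mcur1 (r = 0.817). Most like Tex19.2 were Sms (r = 0.923, rho = 0.895), Cd2bp2 (r = 0.913), Phf1 (r = 0.892), Steap2 (r = 0.884) and Coro1b (r = 0.873). These are the highest of many, so they carry no p.

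The oocyte differences of Tex15 and Tex19.2 were set against the genes near them. Distances to neighbours are between the lowest coordinates of the genes, since the gene table gives no strand. Of 10 tested genes within 1 Mb of Tex15, 0 were called (edgeR quasi-likelihood test; 3 had an unadjusted p under 0.05, and DESeq2 called 0). The nearest tested genes on each side were Purg, at -131.1 kb from Tex15, with 2.89 CPM in hCG and 1.25 CPM in Ctrl (log2 fold change 1.22 ± 0.75, adjusted p = 0.406), and Ubxn8, at 102.9 kb, with a log2 fold change of -0.09 ± 0.25. Of 27 tested genes within 1 Mb of Tex19.2, Tex19.1 among them, 1 was called higher and 1 lower, beside 1.33% and 2.66% of all genes. In this region 9 genes had an unadjusted p under 0.05 in edgeR, and DESeq2 called 4, beside 691 of all 9551 genes. The gene called higher was the predicted gene Gm12586. The one called lower was Anapc11, a subunit of the anaphase-promoting complex, at 25.9 CPM in hCG against 54.5 CPM in Ctrl (log2 fold change -1.09 ± 0.19, adjusted p = 0.00214, edgeR). Gm12586, 739.4 kb from Tex19.2, had 8.38 ± 2.66 CPM in hCG and no read in any of the 6 Ctrl libraries (SD, n = 6), where 3 reads in the smallest library would be 1.26 CPM.

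Other genes of the same pathways, taken from lists drawn up with earlier results known, changed in small numbers in oocytes. Of 19 tested piRNA pathway genes outside the set, 0 were called higher and 1 lower, against 1.33% and 2.66% of all genes. The 1 called gene was Pld6, the mitochondrial nuclease of piRNA processing, at 21.1 ± 5.55 CPM in hCG and 42.8 ± 8.42 CPM in Ctrl (log2 fold change -1.03 ± 0.22, adjusted p = 0.00864, edgeR). All 6 hCG libraries were below all 6 Ctrl libraries, and Pld6 was called under every one of the 17 alternatives, 12 of which left out a library. Of 9 meiotic chromosome genes, Msh4, a crossover factor, was higher and Hormad1, an axis protein, was lower. Msh4 averaged 77.8 ± 6.27 CPM in hCG and 52.2 ± 7.27 CPM in Ctrl (adjusted p = 0.0277), and Hormad1 averaged 50.5 ± 13.1 CPM in hCG and 90.6 ± 22.4 CPM in Ctrl (adjusted p = 0.0281). The calls of Msh4 and Hormad1 were kept in 6 and 8 of the 12 fits that left out a library, and Msh4 was not called without the low-count filter (adjusted p = 0.0798). Hormad1 was also the 1 called gene of 19 tested genes silenced by promoter methylation outside the set.

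Enzymes and repressors that keep such genes and retrotransposons silent showed a few changes in oocytes. Of 20 other retrotransposon restriction genes, 2 were called lower and 0 higher. Ehmt1, the H3K9 methyltransferase GLP, averaged 98.5 ± 15.5 CPM in hCG and 168 ± 37.9 CPM in Ctrl (log2 fold change -0.77 ± 0.16, adjusted p = 0.00690, edgeR). Dnmt1, the maintenance DNA methyltransferase, averaged 393 ± 101 CPM in hCG and 675 ± 223 CPM in Ctrl (log2 fold change -0.78 ± 0.19, adjusted p = 0.0211), and kept the call in 10 of 12 fits that left out a library. Of 16 germline-gene repressors, 1 rose: Rnf2, the RING1B ubiquitin ligase, averaged 178 ± 12.9 CPM in hCG and 124 ± 18.9 CPM in Ctrl (adjusted p = 0.0263), called in 8 of those 12 fits and not called without the low-count filter (adjusted p = 0.0639). The median log2 fold changes of the piRNA, meiotic, restriction and repressor lists were 0.12, -0.32, 0.03 and 0.05, beside 0.01 for all genes.

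In blastocysts Tex19.1 was the 1 member called. Tex19.1 had 29.7 CPM in the lowest, 112 in the median and 516 in the highest of the 28 hCG libraries, against 17.4, 86.1 and 223 CPM in the 28 Ctrl libraries. The groups overlapped, with 22 of 28 hCG libraries above the Ctrl median and 5 above every Ctrl library. The means were 152 ± 105 CPM in hCG and 88.3 ± 54.3 CPM in Ctrl (SD), a log2 fold change of 0.76 ± 0.23 on the log2(CPM + 1) scale (limma, adjusted p = 0.0215 over 10850 genes). Of all genes tested, 8.68% were called higher and 7.57% lower, so 1 of 7 tested members higher and 0 lower is near the background. In blastocysts, which hold many cells, a change in the number of cells of a type and a change in RNA per cell cannot be told apart. Without the 5 libraries holding Xist and Y transcripts the log2 fold change was 0.89 (adjusted p = 0.0159), and with the number of detected genes as a covariate it was 0.48 and not called (adjusted p = 0.229). The markers of blastocyst cells summed to 2747 to 8812 CPM in hCG and 1825 to 12208 CPM in Ctrl, with Nanog called higher (log2 fold change 0.58) and Eomes called lower (-0.69). Of 4 tested oocyte markers Padi6 was called higher (0.73, adjusted p = 0.0128) and Ooep lower (-0.41, adjusted p = 0.0439), and the oocyte list summed to 40.1 to 120 CPM in hCG and 50.6 to 214 CPM in Ctrl. Of 3 tested uterine, stromal and blood markers 1 was called higher, H2-Ab1 (0.98 ± 0.26, adjusted p = 0.00767), with list sums of 9.97 to 217 CPM in hCG and 7.41 to 130 CPM in Ctrl. The part of these markers in the Tex19.1 difference was not tested.

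Tex19.2 spanned 10.0, 26.2 and 81.4 CPM (lowest, median, highest) in hCG and 2.25, 21.9 and 106 CPM in Ctrl, with a log2 fold change of 0.32 ± 0.21 (adjusted p = 0.299, limma). Whether the Tex19 paralogs differ from each other in this response was not tested. In 16 of 28 hCG and 8 of 28 Ctrl blastocyst libraries the estimated reads of the 2 paralogs were not whole, to within 0.01 reads. Their sum was whole, so reads were shared out between them there. The summed level of the pair averaged 180 ± 118 CPM in hCG and 113 ± 62.6 CPM in Ctrl (SD, n = 28 each). Estimated reads of Sycp3 were also not whole in some libraries, such as 1271.505 in hCG replicate 22 and 1073.536 in Ctrl replicate 14. The part of shared reads in these values was not tested. Sycp3, the member with the highest mean CPM here, a value not corrected for length, spanned 83.1, 175 and 270 CPM in hCG and 51.0, 145 and 339 CPM in Ctrl, with a log2 fold change of 0.24 ± 0.16 (adjusted p = 0.318). Piwil2, barely seen in oocytes, averaged 29.5 ± 10.2 CPM in hCG blastocysts and 27.4 ± 11.7 CPM in Ctrl blastocysts, with a log2 fold change of 0.09 ± 0.14 (adjusted p = 0.717, limma).

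Mael averaged 22.8 ± 11.1 CPM in hCG and 21.3 ± 11.5 CPM in Ctrl, and Asz1 averaged 32.9 ± 16.5 CPM in hCG and 30.9 ± 13.3 CPM in Ctrl. Neither passed the test, with log2 fold changes of 0.11 ± 0.20 and -0.01 ± 0.18. Ddx4 was low, at 3.41 ± 2.79 CPM in hCG and 4.52 ± 3.64 CPM in Ctrl, with a log2 fold change of -0.31 ± 0.24 (adjusted p = 0.402, limma). Tex15, Taf7l and Tdrd1 did not pass the low-value filter, having reads in 20, 12 and 10 of 28 hCG libraries and in 21, 14 and 9 of 28 Ctrl libraries. Tex15, the gene with the largest difference among the members in oocytes, averaged 1.09 ± 1.02 CPM in hCG blastocysts and 1.95 ± 2.17 CPM in Ctrl blastocysts.

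**Figure D2:**
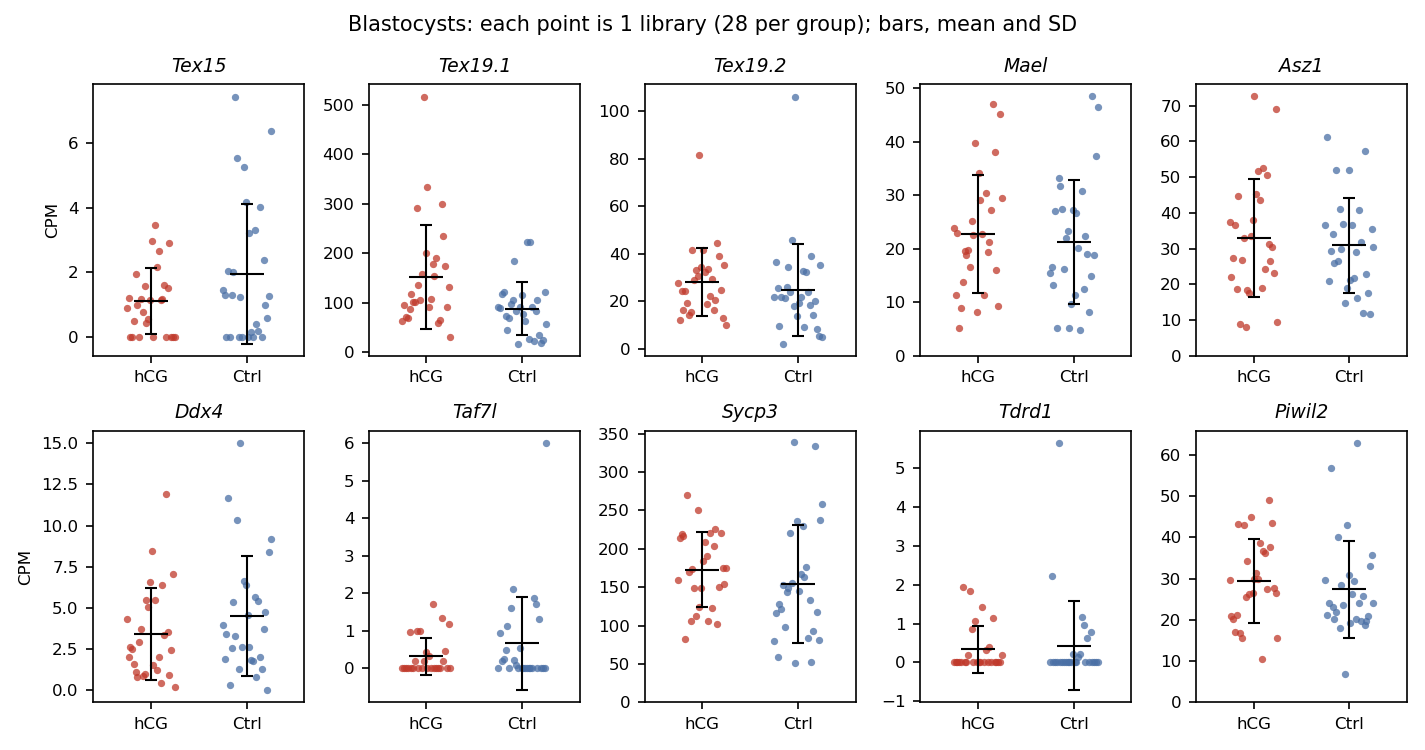
Level of each member in blastocysts, in CPM on linear axes, with 1 point per library (28 hCG on the left, 28 Ctrl on the right) and bars for mean and SD. Tex19.1 is shifted up in hCG with overlapping groups, and Tex15, Taf7l and Tdrd1 lie near 0 in both.

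The blastocyst panels show how wide the spread between libraries was, and the members did not all vary together. Of 15 pairs of the 6 members with a mean of at least 5 CPM, 2 had an adjusted p under the threshold after each group's mean was removed. The pair Tex19.1 and Tex19.2 had r = 0.559 (permutation p = 2e-05, adjusted p = 0.0003) and rho = 0.638 (adjusted p = 0.00015), with r = 0.794 within hCG and 0.439 within Ctrl and 0.492 without the 2 farthest libraries. Over the 12 hCG and 20 Ctrl libraries in which the reads of both paralogs were whole, an alternative added after the data had been seen, r was 0.547 (permutation p = 0.00132) and rho was 0.644 (permutation p = 0.00012). Tex19.1 and Piwil2 had r = 0.504 (permutation p = 8e-05, adjusted p = 0.0006) and rho = 0.519 (adjusted p = 0.0003), with r = 0.482 within hCG, 0.522 within Ctrl and 0.482 without the 2 farthest libraries. Tex19.2 and Piwil2 passed by rho (0.360, permutation test, adjusted p = 0.0326) but not by r (0.259, adjusted p = 0.159). The oocyte values are whole counts, and how reads that match both paralogs were counted there is not given in the sources used here. On the deposited values with no scaling to library totals all 15 pairs were past the threshold.

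**Figure D3:**
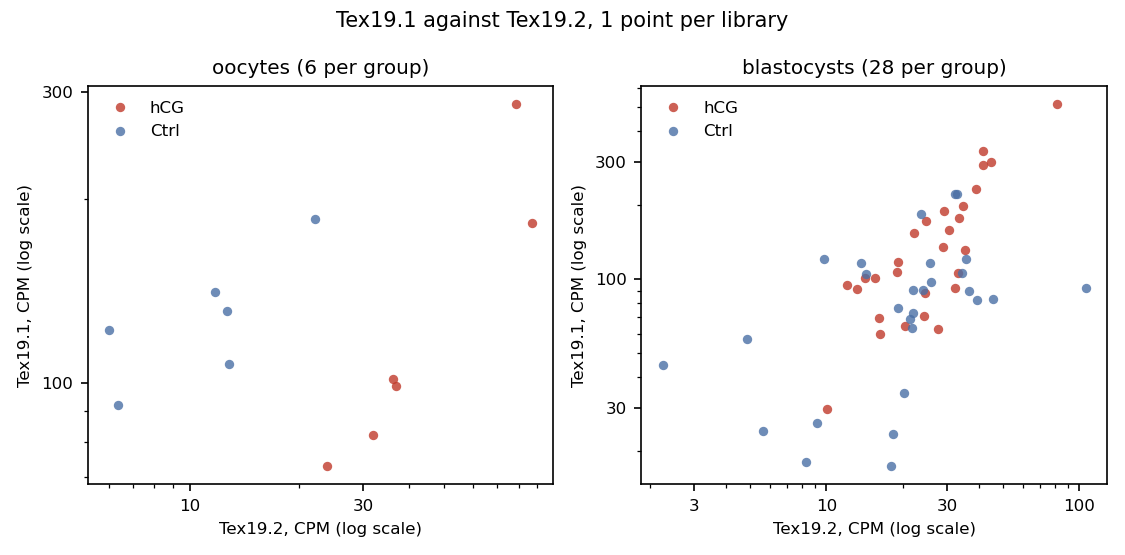
Tex19.1 against Tex19.2 in CPM, both axes logarithmic, with 1 point per library for 6 hCG and 6 Ctrl oocyte libraries (left) and 28 hCG and 28 Ctrl blastocyst libraries (right). In oocytes the hCG points lie to the right of the Ctrl points at a similar Tex19.1 level, and in both panels libraries with more Tex19.2 tend to have more Tex19.1.

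The plot of the Tex19 pair shows both relations at once, the shift along the Tex19.2 axis in oocytes and the joint spread between libraries. By the same group-centred measure, over 56 blastocyst libraries and 9194 genes, the genes most like Sycp3 were Hprt (r = 0.717, rho = 0.650), Uxt (r = 0.714), Vamp7 (r = 0.711), Rpp30 (r = 0.675) and Mcts1 (r = 0.669). For Tex19.1, a choice made after its values were seen, they were Abcf2 (r = 0.818, rho = 0.777), Slc2a1 (r = 0.804), Sqstm1 (r = 0.800), Ctsd (r = 0.790) and Eif3d (r = 0.781). Around the Tex19 pair, 38 genes were tested in blastocysts within 1 Mb of Tex19.1, of which 4 were called higher and 0 lower, near the 8.68% of all genes called higher. They were Cbr2, a carbonyl reductase (log2 fold change 1.10 ± 0.24), Hgs, a sorting factor of endosomes (0.70 ± 0.17), Rfng, a glycosyltransferase acting on Notch (0.65 ± 0.19), and Arhgdia (0.49 ± 0.14), with adjusted p of 0.00171 to 0.0170 in limma. With the number of detected genes as a covariate Cbr2, Rfng and Arhgdia were not called (adjusted p = 0.0505, 0.152 and 0.199, limma). The nearest of these, Rfng, lies at -365.4 kb from Tex19.1 by lowest coordinates.

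Of 20 tested piRNA pathway genes outside the set, 2 were called higher in blastocysts and 0 lower, a share near the 8.68% of all genes called higher. Prmt5, the methyltransferase, averaged 155 ± 39.6 CPM in hCG and 101 ± 42.5 CPM in Ctrl (log2 fold change 0.74 ± 0.18, adjusted p = 0.00385, limma), and was not called with the number of detected genes as a covariate (0.29, adjusted p = 0.214). Wdr77, its cofactor in the methylosome, averaged 212 ± 42.5 CPM in hCG and 162 ± 46.2 CPM in Ctrl (log2 fold change 0.38 ± 0.09, adjusted p = 0.00369). Of 18 methylation-silenced germline genes 2 were called higher, also near that share: Rpl10l, a testis ribosomal protein paralog (log2 fold change 0.50 ± 0.16, adjusted p = 0.0237), and Dpep3, a dipeptidase of germ cells (0.55 ± 0.19, adjusted p = 0.0428), but 0 were called without the 5 Xist and Y libraries. Dpep3 was also not called with the covariate (adjusted p = 0.356) or without the low-value filter (adjusted p = 0.0774). Of 12 meiotic chromosome genes 0 were called by limma, with 3 at an unadjusted p under 0.05, and no other tool was run on this table. The most abundant of them, Syce2 of the synaptonemal complex, stood at 0.27 ± 0.12 on the log2 scale (adjusted p = 0.110).

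The restriction genes and repressors were the pathway lists with genes called lower, and Dnmt3b is on both. The repressors as a list did not fall, with a median log2 fold change of -0.001 and 9 of 19 genes above 0. Of 26 restriction genes 8 were called lower and 2 higher, with a median log2 fold change of -0.23, beside 0.02 for all genes and 7.57% of all genes called lower. Dnmt3b, a de novo DNA methyltransferase, averaged 97.6 ± 26.1 CPM in hCG and 150 ± 53.3 CPM in Ctrl (log2 fold change -0.61 ± 0.11, adjusted p = 0.000283), with 26 of 28 hCG libraries below the Ctrl median. Uhrf1, which brings DNMT1 to hemimethylated DNA, averaged 38.9 ± 12.7 CPM in hCG and 54.3 ± 19.16 CPM in Ctrl (-0.52 ± 0.13, adjusted p = 0.00463). Ehmt1 averaged 24.9 ± 5.83 CPM in hCG and 32.2 ± 8.77 CPM in Ctrl (-0.38 ± 0.10, adjusted p = 0.00804).

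Apobec3, a cytidine deaminase that acts on retroelements, was higher, at 10.6 ± 10.9 CPM in hCG and 4.04 ± 2.37 CPM in Ctrl (0.94 ± 0.24, adjusted p = 0.00696, limma). Of 19 repressors 4 were called lower and 0 higher: Dnmt3b again, Rybp (-0.47 ± 0.12), a PRC1 subunit, Setdb1 (-0.37 ± 0.11), an H3K9 methyltransferase, and Cbx3 (-0.38 ± 0.14), the HP1 protein of PRC1.6. With the covariate Rybp and Cbx3 were not called (adjusted p = 0.0625 and 0.986, limma), and Cbx3 was also not called without the low-value filter (0.0699) or without the 5 Xist and Y libraries (0.102). Without the 5 Xist and Y libraries the restriction genes gave 5 lower and 1 higher and the repressors 3 lower, and with the number of detected genes as a covariate they gave 5 lower and 2 higher, and 2 lower. On unscaled values, which move the median of all genes by 0.49, the split turned to 7 restriction genes higher and 0 lower and 5 repressors higher and 0 lower. There the median log2 fold change was 0.20 for the restriction genes and 0.43 for the repressors. Ehmt1 was called lower in hCG in both oocytes and blastocysts.

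**Figure D4:**
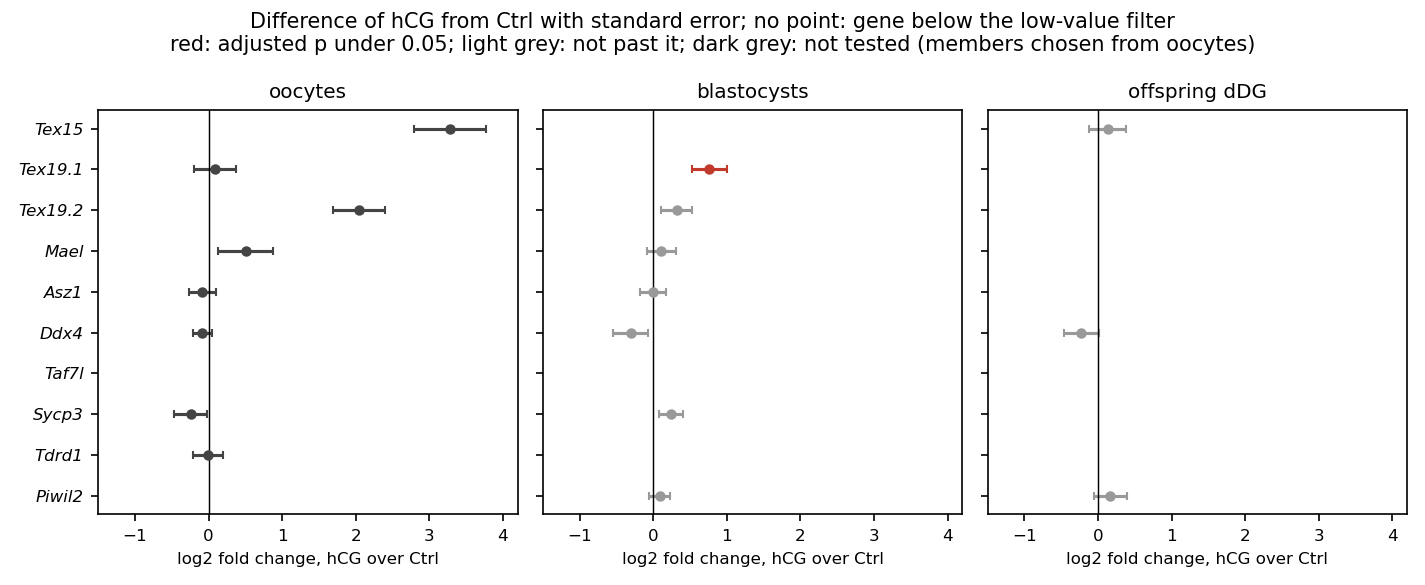
Log2 fold change of hCG over Ctrl with its standard error for each member in oocytes, blastocysts and dDG. Dark grey points are not tested, the red point is past an adjusted p of 0.05, light grey points are not, and a missing point is a gene below the low-value filter; the red point is Tex19.1 in blastocysts, and Tex15 and Tex19.2 lead in oocytes.

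The plot of fold changes shows Tex15 and Tex19.2 far from 0 in oocytes. In blastocysts Tex15 was below the low-value filter and so not tested, and Tex19.2 was not past the threshold. In the offspring dDG, 3 of the 10 members passed the filter, all near 1 CPM, and none of the 3 was called (edgeR quasi-likelihood test; 0 had an unadjusted p under 0.05, and DESeq2 called 0), while 4.66% of all 13853 genes were called higher and 3.2% lower. Tex15 averaged 1.39 ± 0.351 CPM in hCG and 1.28 ± 0.344 CPM in Ctrl (log2 fold change 0.13 ± 0.25, adjusted p = 0.786). Piwil2 averaged 1.58 ± 0.337 CPM in hCG and 1.41 ± 0.307 CPM in Ctrl (0.17 ± 0.22, adjusted p = 0.679), and Ddx4 averaged 1.06 ± 0.285 CPM in hCG and 1.25 ± 0.271 CPM in Ctrl (-0.23 ± 0.24, adjusted p = 0.605).

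The Tex19 genes were not detected in the dDG. Tex19.1, Tex19.2 and Asz1 had 0 reads in all 12 libraries, where 3 reads over all libraries together would be 0.0150 CPM. Sycp3 had 28 reads over hCG libraries and 64 over Ctrl libraries, with 0.189 to 0.408 CPM in hCG and 0.405 to 0.869 CPM in Ctrl. All 6 hCG libraries were below the Ctrl median and 5 of them below every Ctrl library, but Sycp3 was under the low-count filter. Without the filter its log2 fold change was -1.19 ± 0.36 and did not pass (adjusted p = 0.0653, edgeR).

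Mael had 9 reads in 4 hCG libraries and 43 reads in all 6 Ctrl libraries (unfiltered log2 fold change -2.19 ± 0.77, adjusted p = 0.116, edgeR). Taf7l had 12 reads in 5 hCG libraries and 3 reads in 2 Ctrl libraries, too few for a comparison. Tdrd1 had 53 reads in hCG and 70 in Ctrl. The dDG table counts each RefSeq transcript, and 2 transcripts of Ddx4 had reads. Summed over libraries they had 49 and 58 reads in hCG and 61 and 64 in Ctrl. The first had reads in 3 hCG and 3 Ctrl libraries and the second in 4 hCG and 3 Ctrl libraries. Most libraries thus gave all their Ddx4 reads to 1 transcript, and a level per transcript was not resolved. Oocyte markers summed to 0.126 to 0.427 CPM in hCG and 0.0622 to 0.309 CPM in Ctrl, with 7 of 14 at 0 in every dDG library. Dentate granule neuron markers were called higher for 5 of 14 and lower for 0, and their part in the members' values was not tested.

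**Figure D5:**
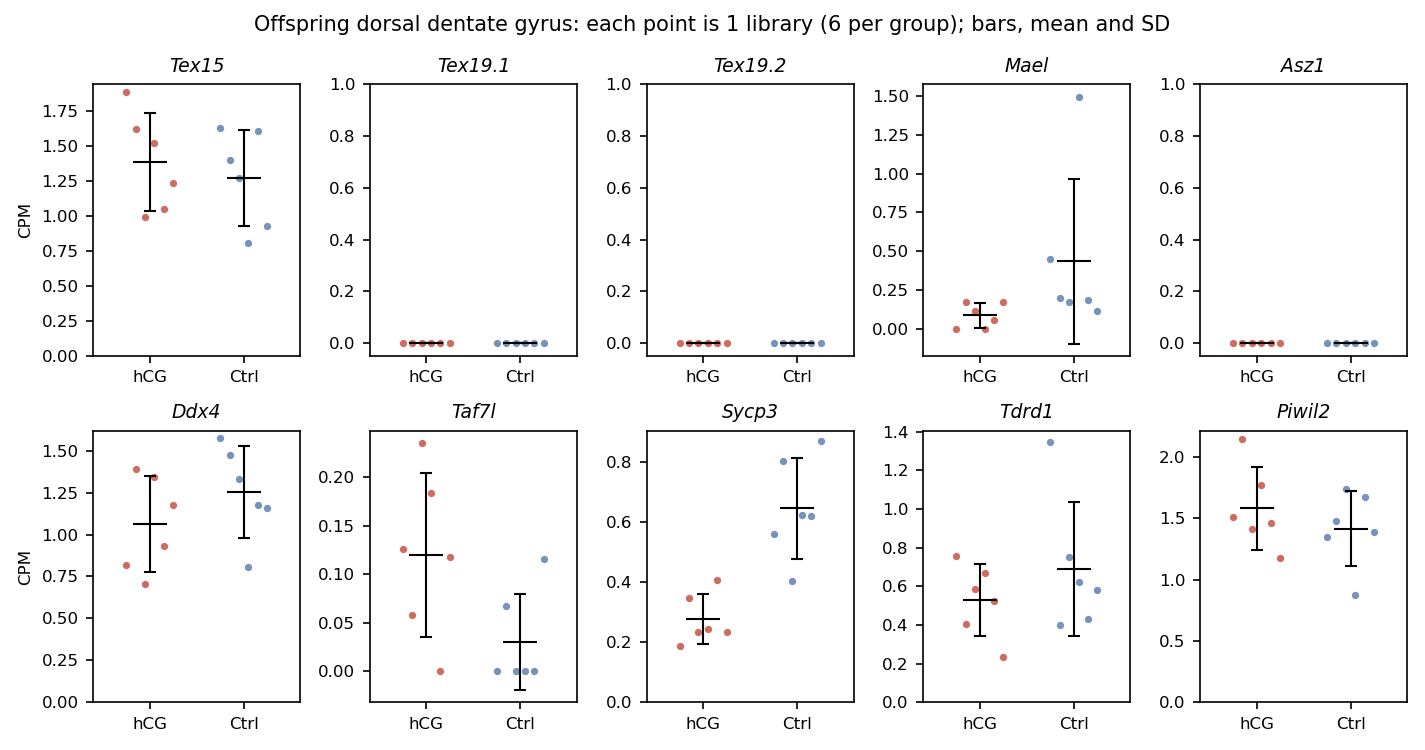
Level of each member in the offspring dDG, in CPM on linear axes, with 1 point per library (6 hCG on the left, 6 Ctrl on the right) and bars for mean and SD. Tex15, Ddx4 and Piwil2 lie near 1 CPM with overlapping groups, and Tex19.1, Tex19.2 and Asz1 are at 0 throughout.

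The dDG panels also show Sycp3 lower in nearly every hCG library at well under 1 CPM. Of the other pathway lists in the dDG, 1 of 10 piRNA pathway genes was lower, Wdr77, at 57.7 ± 3.36 CPM in hCG and 68.4 ± 2.60 CPM in Ctrl (log2 fold change -0.23 ± 0.05, adjusted p = 0.0113, edgeR). Of 5 methylation-silenced germline genes and 5 meiotic genes 0 were called by edgeR and 0 by DESeq2, with 1 and 0 at an unadjusted p under 0.05. Of 26 restriction genes, Suv39h1, an H3K9 methyltransferase, was lower (log2 fold change -0.33 ± 0.08), and Mov10, an RNA helicase that restricts retrotransposons, and Trim28, the corepressor of KRAB zinc finger proteins, were higher (0.55 ± 0.14 and 0.18 ± 0.05). Without hCG replicate 6 the rises of Mov10 and Trim28 were no longer called, leaving 0 higher and 1 lower, and over the 12 fits that left out a library they were called in 6 and 3. Trim28 was also not called without the low-count filter (adjusted p = 0.0581, edgeR). Of 21 repressors 1 rose, Hdac2, a histone deacetylase, at 137 ± 3.15 CPM in hCG and 117 ± 6.00 CPM in Ctrl (0.25 ± 0.04, adjusted p = 0.00410). Of the 42 tested genes within 1 Mb of Tex19.1, 2 were called higher and 1 lower in the dDG, near the 4.66% and 3.2% of all genes. Pcyt2 and Dus1l were higher (log2 fold change 0.28 ± 0.07 and 0.35 ± 0.08), and Fasn was lower (-0.21 ± 0.06). Over the 12 fits that left out a library, Pcyt2, Dus1l and Fasn were called in 10, 12 and 4.

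Set side by side, the members had different orders of level in the 3 materials, in tables normalised apart and so without a test. Tex15 averaged 80.7 CPM in hCG oocytes and 8.56 CPM in Ctrl oocytes, 1.09 and 1.95 CPM in hCG and Ctrl blastocysts, and 1.39 and 1.28 CPM in hCG and Ctrl dDG. Piwil2 was highest in blastocysts, averaging 0.700 and 0.435 CPM in hCG and Ctrl oocytes, 29.5 and 27.4 CPM in hCG and Ctrl blastocysts, and 1.58 and 1.41 CPM in hCG and Ctrl dDG. For Piwil2 every one of the 56 blastocyst libraries was above every oocyte and dDG library, and for Tex15 the Ctrl oocyte, blastocyst and dDG libraries overlapped.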

How the data were processed

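RNA from oocytes, blastocysts and dDG was measured as polyadenylated RNA, with Smart-seq2 for oocytes and blastocysts per the labels. The submitters' processing notes name STAR, TopHat and HTSeq and the builds mm10 and GRCm38, without saying which made which table. The authors deposited whole-number counts per gene for oocytes, and expected counts per RefSeq transcript for the dDG, which were summed by symbol and rounded. In the deposited blastocyst signal, 1 estimated read was worth a step that differed between libraries, 39.3 to 244, with 89.0% to 93.35% of values whole multiples of that step (tolerance 0.005); what sets the step is not given in the sources used here. Rows with a blank or date-like symbol (0.169% and 0.324% of oocyte and dDG values) were left out. 

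Oocyte and dDG counts were fitted with edgeR 4.0.16 (R 4.3.3; robust quasi-likelihood, TMM, filterByExpr with at least 10 reads per library and 15 in all). Blastocysts were fitted with limma 3.58.1 (trend, robust) on log2(TMM-normalised CPM + 1). P-values were Benjamini-Hochberg adjusted over all genes tested, at 0.05. Levels are counts per 1000000 reads of the library. Levels of different genes are not comparable, since no transcript length was used. The fits were tested on simulated data. Members and gene lists were chosen with earlier results of these data known. All members were described, and beyond them, from each list, up to 4 called genes with the smallest p or the 2 most abundant, called or nearest neighbours of Tex15 and the Tex19 pair, and the 5 genes most alike. One gene that this rule names is not reported here.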

Additional observations from a re-analysis of the deposited data

Results flagged for a closer look

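In 33 groups of 6 libraries, with at least 1 read, the highest and lowest library of each member was compared with its neighbour. A library stood apart in 6 of them, with a gap over 0.625 of the group's range. This number is not set against chance, since CPM was used on a linear scale and some groups held few reads. Tex15 in hCG oocytes reached 156.07 CPM in replicate 1, against 81.4 CPM in the next library. Without replicate 1 the log2 fold change of Tex15 was 2.96 ± 0.44 (SE), again a description without a test. The other 5 rest on few reads. In hCG oocytes Taf7l reached 0.240 CPM in replicate 4, against 0 in the rest, which is 1 read, and Piwil2 reached 3.38 CPM in replicate 1, against 0.621 CPM in the next. In Ctrl oocytes Piwil2 reached 1.5016 CPM in replicate 6, against 0.421 CPM in the next. In the Ctrl dDG Mael reached 1.49 CPM in replicate 4, against 0.449 CPM in the next, and Tdrd1 reached 1.35 CPM in replicate 1, against 0.752 CPM in the next.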

How the results depend on the processing

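Of the members' log2 fold changes in blastocysts and dDG under the alternatives, 90 kept their direction and side of the threshold, 2 passed it, 1 fell short and 4 changed sign. All 136 untested oocyte values of 8 members moved by less than the SD between libraries. That is a loose bound, since 12 of the 17 alternatives left out only 1 library, which can shift a group mean little against that SD. Of these values 12 changed sign: 8 for Tdrd1 (-0.11 to 0.11), 3 for Tex19.1 (-0.29 to 0.21) and 1 for Asz1 (-0.16 to 0.05). In oocytes 381 genes were called, 691 with DESeq2, 592 without the pair of shallow Ctrl libraries (replicates 2 and 4; 45.4% of calls higher, against 33.3%), and 246 (without Ctrl replicate 3) to 655 (without Ctrl replicate 4) when 1 library was left out. In blastocysts 1763 genes were called, 1147 without the 5 Xist and Y libraries, 776 with detected genes as a covariate and 3670 on unscaled values, where 99.6% of calls were higher, against 53.4%. In the dDG 1089 genes were called, 584 with a replicate block and 644 (without Ctrl replicate 6) to 1230 (without Ctrl replicate 5) with 1 library left out. The covariate lowered the log2 fold change of Tex19.1 in blastocysts to 0.48 (adjusted p = 0.229). On unscaled values all 15 co-varying pairs passed, against 2, and Tex19.2 (0.79) and Sycp3 (0.67) passed. Signs changed for Asz1 (0.028 without TMM, 0.43 unscaled), Ddx4 (0.20), Ehmt1 (0.036), Setdb1 (0.048) and Cbx3 (0.049) unscaled, Piwil2 (-0.026) with the covariate, and Ubxn8 in oocytes (-0.20 to 0.013 with 1 library left out). The causes were not tested.

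No pairing of libraries by replicate number was evident, which does not exclude one. Same-numbered oocyte libraries correlated at -0.188 to 0.208, with 2 of 6 pairs over 0.1 and 1 of 6 closest to its own number. In blastocysts 3 of 28 pairs and in the dDG 2 of 6 pairs were over 0.1, with 0 closest. With a replicate block, 335 oocyte, 1539 blastocyst and 584 dDG genes were called. Not called with it were Msh4, Dnmt1 and Rnf2 in oocytes (adjusted p = 0.0519 to 0.0709), Dpep3 and Cbx3 in blastocysts (0.0525 and 0.0518), and Suv39h1, Wdr77, Trim28 and Mov10 in the dDG (0.0557, 0.0596, 0.103 and 0.110). A count test on blastocyst reads was not run, because the deposited values are not counts. Genes under about 1 CPM, as the members in the dDG, rest on few reads, and no difference at that depth is excluded by a missed threshold.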
